A study of Mus musculus with 28 samples.

Results

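Proliferation and DNA replication genes were followed in dendritic cells of mouse kidney, in healthy organs and in kidney allografts. The set was given as 42 gene symbols that span replication, the cyclins and mitosis. Of these, 41 had a probeset mapped to that symbol alone, among 19272 genes on the array, and the brightest probeset of each gene was used. Ccnb1 had none of its own in the table used and was not analysed here. A filter on dim genes kept 39 of the 41 for testing, and Ccne2 and Ttk were left to description. The filter asked for 3 arrays above the 40th percentile, and 4 of the 39 (Aspm, Bub1, Cdc6 and Melk) met it only with the help of donor cortex arrays. Counts and medians over the 39 that involve donor cortex are therefore descriptions.

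A dividing cell first loads the Mcm2-7 helicase on its DNA with the help of Cdc6, and then activates it with Cdc45 and the GINS complex, of which Gins1 and Gins2 are subunits. Ribonucleotide reductase (Rrm1, Rrm2) and thymidylate synthase (Tyms) supply nucleotides, and Pcna is the ring that holds the polymerase on DNA. Cyclin E carries the cell into S phase, cyclin A through it, and cyclin B with Cdk1 into mitosis, where Aurora and Polo kinases, the spindle checkpoint and kinesins separate the chromosomes. Dendritic cells of tissues are mostly renewed from precursors, and a part of them divides locally.

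The cells came from 8 groups, with cortex and medulla taken from the same mice. Donor cells (BALB/c, CD45.2) and host cells (C57BL/6, CD45.1) were sorted from the medulla and the cortex of kidney allografts at day 3 after transplantation, with 3 arrays in each of these 4 groups. The donor and host arrays with the same replicate number share a mouse number, here called graft 1, graft 2 and graft 3. Homeostatic cells came from the medulla and the cortex of healthy BALB/c and healthy C57BL/6 kidneys, with 4 arrays in each of these 4 groups, from 8 mouse numbers. The labels give no age, and no CD45 allele for the healthy mice. All cells were released with collagenase and DNase, sorted for CD45, CD11c and MHCII and their RNA was amplified. The values are log2 array signal, on which a difference of 1 is a 2-fold change. Levels of different genes cannot be set against each other, since each has its own probes. Precision is set by how many arrays each group has.

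The sort markers were read first. Itgax (CD11c) was 7.25 to 7.59 in donor medulla and 9.16 to 10.7 in donor cortex, against 7.20 to 9.53 in BALB/c medulla and 9.90 to 11.8 in BALB/c cortex. It was 7.29 to 8.17 in host medulla and 7.70 to 10.6 in host cortex, against 10.9 to 11.4 in C57BL/6 medulla and 10.9 to 11.6 in C57BL/6 cortex. The mean of 6 leukocyte-wide genes was 9.27 to 11.3 in donor medulla, 8.20 to 9.30 in host medulla, 10.6 to 11.5 in donor cortex and 9.62 to 11.9 in host cortex, against 11.4 to 12.1 in the 16 homeostatic arrays. The mean of 6 epithelial genes was 9.80 to 11.1 in graft medulla and 9.31 to 10.0 in graft cortex, against 8.03 to 9.47 in homeostatic arrays. Graft medulla thus lay below every homeostatic array in leukocyte signal and above every one in epithelial signal. In epithelial signal host cortex (9.53 to 10.04) also lay above every homeostatic array, and donor cortex (9.31 to 9.97) lay above BALB/c cortex (8.03 to 8.55) and overlapped with BALB/c medulla alone. In bulk RNA fewer cells of a type and less RNA per cell cannot be told apart. The first BALB/c medulla array correlated least with its own group (mean r = 0.766), where the others had 0.832 to 0.947.

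The promoters of the set hold sequence features that the choice of genes did not use. They are shown for 4 genes that pass tests below as examples, and for Ccne1, the 1 gene called lower in donor cortex than in BALB/c cortex. RefSeq promoter windows (GRCm38.p6) of 300 bases, most of them before a transcript start, matched 33 of the 41 genes. The Aspm, Cdc6 and Aurka windows lie wholly inside the gene, so they belong to a start other than its first base. Capitals mark 3 motifs on either strand, with overlaps allowed: the cell cycle homology region (CHR, TTTGAA), the CCAAT box (CCAAT) and the E2F site (TTTCCCGC, TTTCGCGC, TTTGCCGC or TTTGGCGC). Each line reads 5′ to 3′ on the gene's strand.
Bub1b, chr2:118597961-118598260, plus strand: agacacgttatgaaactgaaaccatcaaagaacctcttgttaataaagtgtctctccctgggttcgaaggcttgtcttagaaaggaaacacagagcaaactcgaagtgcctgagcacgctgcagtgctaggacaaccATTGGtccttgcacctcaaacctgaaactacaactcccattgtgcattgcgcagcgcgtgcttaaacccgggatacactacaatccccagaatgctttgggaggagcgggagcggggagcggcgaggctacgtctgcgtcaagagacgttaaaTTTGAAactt
Aspm, chr1:139454523-139454822, plus strand: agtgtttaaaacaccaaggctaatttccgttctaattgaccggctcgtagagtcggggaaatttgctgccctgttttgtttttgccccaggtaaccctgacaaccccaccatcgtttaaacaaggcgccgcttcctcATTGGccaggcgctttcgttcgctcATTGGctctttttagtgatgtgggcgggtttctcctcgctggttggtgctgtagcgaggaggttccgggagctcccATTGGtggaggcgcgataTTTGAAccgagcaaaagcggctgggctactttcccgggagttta
Cdk1, chr10:69352863-69353162, minus strand: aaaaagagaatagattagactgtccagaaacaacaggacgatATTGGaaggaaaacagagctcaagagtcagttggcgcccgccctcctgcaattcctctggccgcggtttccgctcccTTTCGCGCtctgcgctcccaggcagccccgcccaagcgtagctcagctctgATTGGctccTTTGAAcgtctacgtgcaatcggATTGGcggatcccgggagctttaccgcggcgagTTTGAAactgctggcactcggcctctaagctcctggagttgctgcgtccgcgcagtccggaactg
Mcm6, chr1:128359656-128359955, minus strand: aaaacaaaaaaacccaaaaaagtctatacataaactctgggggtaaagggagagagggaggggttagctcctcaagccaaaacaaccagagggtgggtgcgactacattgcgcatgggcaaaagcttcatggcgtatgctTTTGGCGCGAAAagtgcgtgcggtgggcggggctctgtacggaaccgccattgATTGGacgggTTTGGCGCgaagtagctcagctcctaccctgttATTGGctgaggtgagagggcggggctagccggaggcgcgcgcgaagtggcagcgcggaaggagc
Ccne1, chr7:38107441-38107740, minus strand: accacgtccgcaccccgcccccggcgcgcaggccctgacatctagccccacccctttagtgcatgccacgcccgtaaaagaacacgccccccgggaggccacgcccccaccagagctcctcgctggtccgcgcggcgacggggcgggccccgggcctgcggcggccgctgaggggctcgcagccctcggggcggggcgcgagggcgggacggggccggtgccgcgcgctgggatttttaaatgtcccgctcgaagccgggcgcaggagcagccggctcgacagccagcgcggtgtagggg
The Bub1b, Aspm and Cdk1 windows hold a CHR together with a CCAAT box. The Mcm6 window holds E2F sites, of which 2 overlap on opposite strands, and CCAAT boxes but no CHR, and the Ccne1 window holds none of these letters. The Tyms, Birc5, Melk and Nusap1 windows hold none either, and the means of these genes were higher in donor than in BALB/c cortex. Cdc20 and Ube2c hold a CHR and a CCAAT box, and their means were lower there. Over the set, a CHR occurred in 18 of 33 windows (54.5%), against 20.2% of 27025 genes with a window. A CCAAT box occurred in 27 of 33 (81.8%), against 41.1%, and all 18 windows with a CHR also held a CCAAT box, a pair found in 7.97% of all genes. The E2F letters occurred in 6 of 33 (18.2%), against 2.61% of all genes. They split by role: among the 11 helicase and nucleotide genes 5 windows held an E2F site and 2 a CHR, and among the 22 cyclin and mitotic genes 1 held an E2F site (Cdk1) and 16 a CHR. These counts describe letters in a window and are neither binding sites nor a test.

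Across the 28 arrays the set stood highest in donor cortex. The mean of the 41 genes on each array was 8.37, 7.59 and 7.69 in donor medulla of grafts 1, 2 and 3, and 9.39, 8.44 and 7.69 in donor cortex. It was 7.81, 7.36 and 7.23 in host medulla and 8.18, 7.35 and 7.33 in host cortex. In the homeostatic groups it ran within 7.74 to 7.99 in BALB/c medulla, 7.61 to 7.70 in BALB/c cortex, 7.63 to 7.89 in C57BL/6 medulla and 7.57 to 8.03 in C57BL/6 cortex. Donor cortex of grafts 1 and 2, donor medulla of graft 1 and host cortex of graft 1 lay above every homeostatic array, and donor cortex of graft 3 lay among them. The number of the 41 genes brighter than the 40th percentile of their array was 39, 38 and 21 in donor cortex, against 13 to 31 on the other 9 graft arrays and 19 to 32 on the homeostatic arrays.

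**Figure D1:**
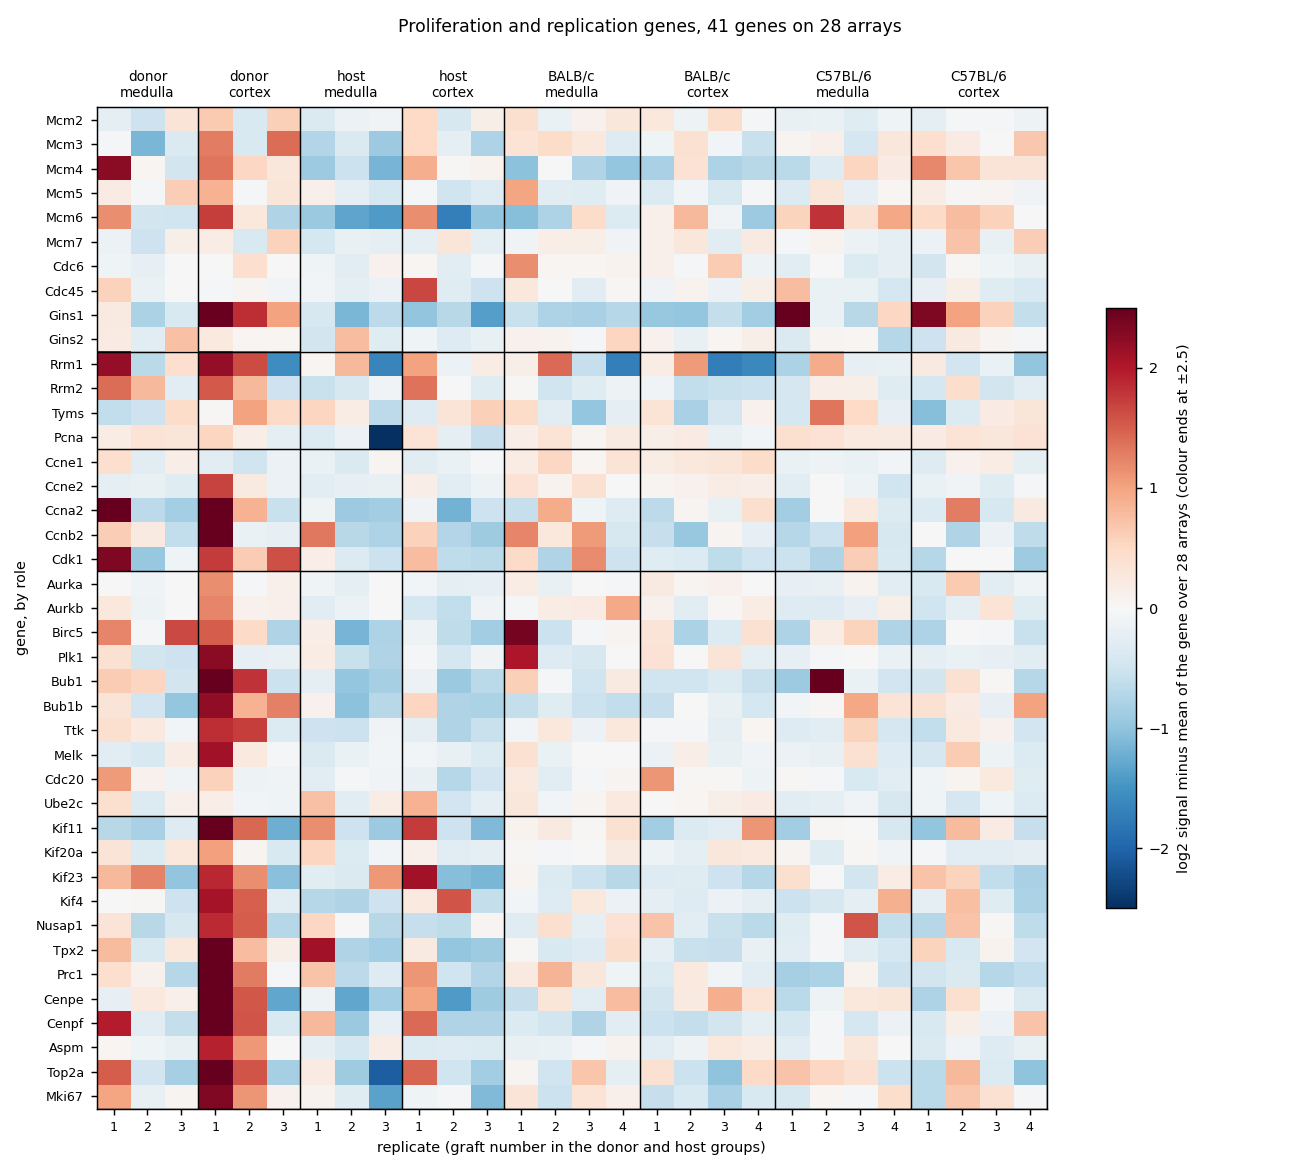
Heat map of the 41 genes (rows, by role from helicase loading at the top to spindle and chromosome genes at the bottom) on 28 arrays (columns, by group). Colour is log2 signal minus the gene's mean over the 28 arrays, with red above and blue below. Donor cortex of graft 1 is red in most rows, donor cortex of graft 2 mainly in the spindle rows, and donor cortex of graft 3 in few.

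The roles differed in how far donor cortex stood out. The 12 spindle, kinetochore and chromosome genes averaged 9.98, 8.90 and 7.19 in donor cortex of grafts 1 to 3, against 7.41 to 7.65 in BALB/c cortex. The 10 mitotic kinase and checkpoint genes averaged 9.07, 7.98 and 7.45 in donor cortex, against 7.38 to 7.59 in BALB/c cortex. The 10 helicase genes averaged 8.71, 8.04 and 8.18 in donor cortex, against 7.57 to 7.89 in BALB/c cortex. In graft 3 the helicase mean therefore lay above the BALB/c range, the kinase mean within it and the spindle mean below it.

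**Figure D2:**
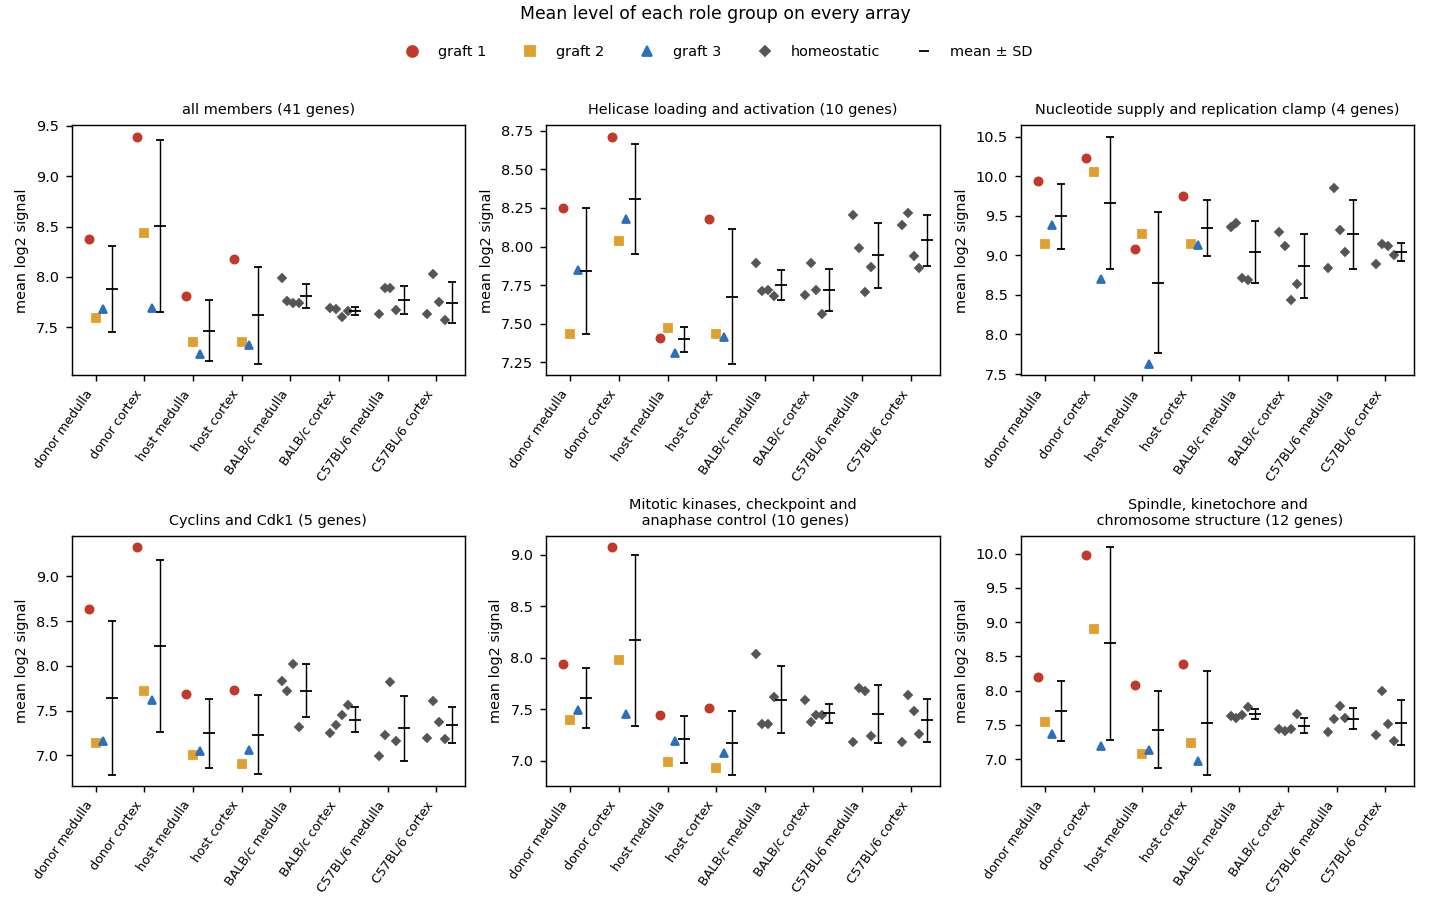
Mean log2 signal of all 41 genes and of the genes of each role on every array (points), by group (horizontal axis), with the mean ± SD of the group to the right of its points (n = 3 for donor and host groups, n = 4 for homeostatic groups). Graft 1 is highest in all 6 panels for donor medulla, donor cortex and host cortex.

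In the cortex, 9 genes of the set were higher and 1 was lower in donor cells than in homeostatic BALB/c cells, the strain of the donor. The 9 were Bub1b, Mki67, Aspm, Gins1, Cdk1, Prc1, Kif4, Cenpf and Tpx2, and the 1 was Ccne1. Tests were limma's moderated statistics with Benjamini-Hochberg adjustment over the 14346 genes tested, and a gene passed at an adjusted p under 0.05. Over all genes tested, 24% passed in this comparison, 7.91% higher and 16.1% lower, so that 10 of 39 is near the share of all genes, while the members called were mostly higher and those of all genes mostly lower. Of the 39, 34 had a positive difference, with a median of 0.85 against a median of -0.13 over all genes, and 16 had an unadjusted p under 0.05.

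Bub1b encodes BubR1, a spindle checkpoint protein that holds back anaphase until chromosomes are attached. It read 10.1, 8.75 and 9.16 in donor cortex, against 7.32, 7.91, 7.70 and 7.45 in BALB/c cortex. The groups did not overlap, and Bub1b rose by 1.74 ± 0.38 on the log2 scale (SE, 3.34-fold, adjusted p = 0.0031, limma). This call held in each of the 7 fits that left out 1 array of these groups, with adjusted p from 0.0039 to 0.033 (limma). On BALB/c cortex arrays 1 and 4 Bub1b was under the 40th percentile of the array, so the fold rests in part on dim values.

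Mki67 encodes Ki-67, the common marker of cycling cells, which coats mitotic chromosomes. It read 10.8, 9.57 and 8.56 in donor cortex, against 7.88, 8.07, 7.65 and 8.08 in BALB/c cortex, with no overlap, and rose by 1.71 ± 0.43 (SE, adjusted p = 0.0080, limma). Cdk1, the kinase that drives entry into mitosis, read 9.67, 8.56 and 9.52 in donor cortex, against 7.62, 7.57, 7.28 and 7.41 in BALB/c cortex. It rose by 1.78 ± 0.57 (SE, adjusted p = 0.029, limma), again with no overlap. The Cdk1 call was lost without donor cortex of graft 1 or 3 or BALB/c cortex array 3 or 4 (adjusted p up to 0.115), and that of Mki67 without donor cortex of graft 1 (adjusted p = 0.082).

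Gins1, a subunit of the replicative helicase, read 9.38, 8.75 and 7.91 in donor cortex, against 5.96, 5.93, 6.32 and 6.03 in BALB/c cortex, with all 3 donor arrays above all 4 BALB/c arrays. The difference was 2.62 ± 0.74 on the log2 scale (SE, adjusted p = 0.015, limma), and the call was lost without donor cortex of graft 1 or 2 (adjusted p up to 0.078). On no BALB/c cortex array did Gins1 exceed the 40th percentile, so its level there is in the dim range and no fold is given. The same holds for Aspm, Prc1, Kif4 and Cenpf. It was the only 1 of the 10 helicase genes that passed. Mcm6 read 10.8, 9.29 and 8.27 in donor cortex, against 9.15, 9.85, 8.95 and 8.13 in BALB/c cortex, where the ranges overlap.

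Aspm, which organises microtubules at spindle poles, read 9.22, 8.38 and 7.31 in donor cortex, against 7.05, 7.18, 7.57 and 7.48 in BALB/c cortex. Graft 3 lay inside the BALB/c range and grafts 1 and 2 above it, and the difference was 0.98 ± 0.27 (SE, adjusted p = 0.012, limma). It ranged from 0.53 without donor cortex of graft 1 to 1.48 without that of graft 3, and did not pass without graft 1 or 2 (adjusted p = 0.128 and 0.054). Aspm exceeded the 40th percentile on 3 arrays in all, 2 of them donor cortex. Its call held with no filter (adjusted p = 0.0084), and it was not tested under the stricter filter. Prc1, which bundles microtubules of the central spindle, read 9.61, 8.19 and 6.86 in donor cortex, against 6.54, 7.15, 6.83 and 6.63 in BALB/c cortex. Kif4, a motor that travels on chromosome arms, read 8.77, 8.18 and 6.43 in donor cortex, against 6.47, 6.38, 6.55 and 6.45 in BALB/c cortex. Both passed on grafts 1 and 2 with graft 3 at the BALB/c level, with differences of 1.44 ± 0.49 for Prc1 (SE, adjusted p = 0.036, limma) and 1.34 ± 0.47 for Kif4 (SE, adjusted p = 0.044, limma). Cenpf, a kinetochore protein, and Tpx2, which activates Aurora A on the spindle, also passed near the threshold (adjusted p = 0.047 each, limma). Of the 7 fits that left out 1 array, 6 lost the call of Kif4, of Cenpf and of Tpx2, and 5 lost that of Prc1. Adjusted p then reached 0.26 for Kif4, 0.275 for Cenpf, 0.315 for Tpx2 and 0.29 for Prc1 (limma).

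Ccne1, cyclin E1, which acts with Cdk2 at entry into S phase, went the other way. It read 7.02, 6.81 and 7.15 in donor cortex, against 7.48, 7.56, 7.60 and 7.76 in BALB/c cortex, with no overlap. It fell by 0.61 ± 0.16 on the log2 scale (SE, adjusted p = 0.011, limma). This call ended under a second quantile normalization (adjusted p = 0.075, limma) and without donor cortex of graft 2 (adjusted p = 0.073, limma). All 3 donor cortex values of Ccne1 were in the dim range, so no fold is given. Of the 39 genes, 6 had all 3 donor cortex arrays above all 4 BALB/c arrays, where 11.4% of all genes did.

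By role, 6 of 12 spindle and chromosome genes rose in donor cortex and all 12 differences were positive, with a median of 1.25. Over all genes 7.91% passed higher and 16.1% lower, and 42.8% of differences were positive. Among the 6, Aspm, Prc1, Kif4 and Cenpf were in the dim range on every BALB/c cortex array, and Aspm met the filter only with donor cortex arrays. Of 9 tested kinase and checkpoint genes 1 rose (median 0.52), of 4 tested cyclin and Cdk1 genes 1 rose and 1 fell (median 1.24), of 10 helicase genes 1 rose (median 0.28), and of the 4 nucleotide and clamp genes none passed, although all 4 differences were positive (median 0.88). Top2a, the topoisomerase that untangles sister chromosomes, did not pass but read 12.0, 11.0 and 8.61 in donor cortex, against 9.82, 8.90, 8.44 and 9.92 in BALB/c cortex. The untested Ttk, a checkpoint kinase, read 8.47, 8.36 and 6.28 in donor cortex, against 6.40 to 6.67 in BALB/c cortex, and Ccne2, cyclin E2, read 7.78, 6.32 and 5.95, against 6.17 to 6.28. For both, graft 1 was high and graft 3 was below the BALB/c range.

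The count of 10 turned on single arrays. It was 2 without the donor cortex array of graft 1 (Bub1b and Ccne1), 4 without that of graft 2 (Bub1b, Mki67, Cdk1 and Mcm3), and 19 without that of graft 3. It was 6 without BALB/c cortex array 1, and 5 without array 3 or without array 4. In a fit without all 4 arrays of graft 1, chosen after seeing the data, 3 genes passed, namely Bub1b (1.36, adjusted p = 0.0090), Cdk1 (1.57, adjusted p = 0.038) and Ccne1 (-0.62, adjusted p = 0.040). A fit of these 2 groups alone gave 3 calls. The share of all genes that passed is not given for these fits, so the counts describe the calls and not a trait of the set. Over all genes tested, donor cortex of graft 3 held the highest of its group's values for 52.3%.

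**Figure D3:**
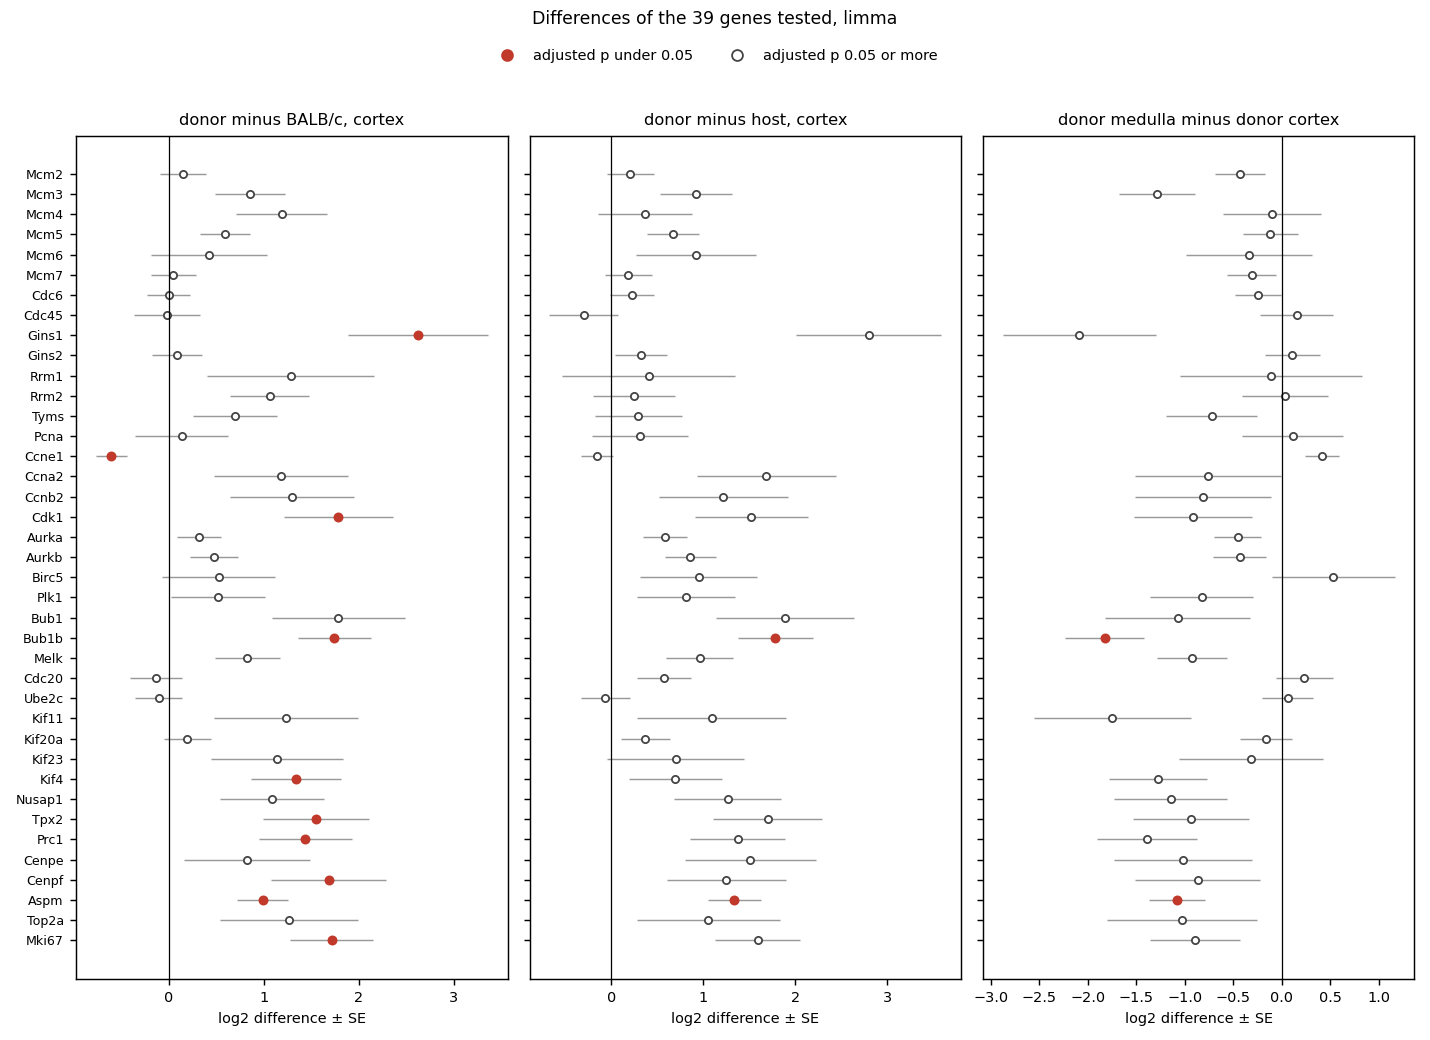
Log2 difference ± SE (horizontal axis) of each of the 39 genes tested (rows, by role) in 3 comparisons, with filled red points for an adjusted p under 0.05. Most points lie right of 0 for donor minus BALB/c cortex (34 of 39) and donor minus host cortex (36 of 39), and left of 0 for donor medulla minus donor cortex (31 of 39).

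Donor cells were then compared with host cells of the same grafts. In the cortex Aspm and Bub1b were higher in donor cells, 2 of 39 genes, where 0.495% of all genes passed, with 0.369% of all genes higher. Aspm read 9.22, 8.38 and 7.31 in donor cortex, against 6.96, 6.98 and 6.96 in host cortex, a difference of 1.34 ± 0.29 (SE, adjusted p = 0.032, limma). Bub1b read 10.1, 8.75 and 9.16 in donor cortex, against 8.43, 7.15 and 7.10 in host cortex, a difference of 1.78 ± 0.41 (SE, adjusted p = 0.047, limma). Neither pair of groups overlapped. Bub1b was in the dim range on the host cortex arrays of grafts 2 and 3. Aspm was in the dim range on all 3 host cortex arrays and was tested only through its donor cortex arrays. With no filter it kept the call (adjusted p = 0.040, limma). Under the stricter filter Aspm was not tested and Bub1b was not called. With mouse as a fixed block, which uses differences within each graft, neither passed (adjusted p = 0.748 for Aspm and 0.555 for Bub1b), no gene of the array did, and 11 of the 39 had an unadjusted p under 0.05. The count was 0 without donor cortex of graft 1 or host cortex of graft 2 or 3, 1 without donor cortex of graft 2 or host cortex of graft 1, and 3 without donor cortex of graft 3.

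In this comparison 36 of the 39 differences were positive, with a median of 0.86 against -0.02 over all genes, and 10 genes did not overlap with donor cortex above, against 4.48% of all genes. Gins1 read 9.38, 8.75 and 7.91 in donor cortex, against 5.91, 6.21 and 5.53 in host cortex, a difference of 2.80 ± 0.79 (SE) that did not pass (adjusted p = 0.21, limma). Mki67 read 10.8, 9.57 and 8.56 in donor cortex, against 8.35, 8.41 and 7.37 in host cortex, a difference of 1.59 ± 0.46 (SE) that did not pass either (adjusted p = 0.23, limma). In both genes every donor array lay above every host array.

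Graft by graft, donor cortex exceeded host cortex of the same mouse in 34, 35 and 29 of the 39 genes in grafts 1, 2 and 3, with medians of 1.07, 0.72 and 0.23. Over all genes 45.4%, 43.9% and 57.9% were positive, with a median of 0.07 in graft 3. The excess was thus smallest in graft 3, where the median over all genes was also positive. A positive difference in all 3 grafts was found for 22 of 39 genes, against 12.7% of all genes. Within grafts Bub1b differed by 1.67, 1.61 and 2.06, and Gins1 by 3.47, 2.54 and 2.38, so that graft 3 had the largest difference for Bub1b and was close to graft 2 for Gins1.

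**Figure D4:**
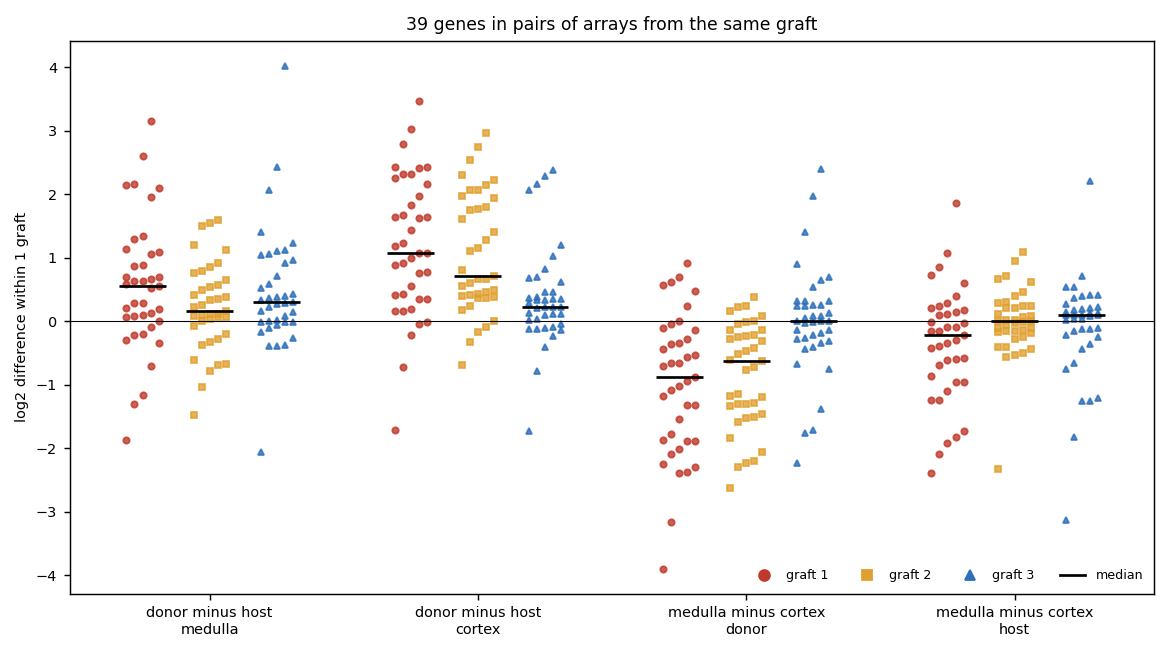
Log2 differences of the 39 genes tested (points) between pairs of arrays of the same graft, for donor minus host in medulla and in cortex and for medulla minus cortex in donor and in host cells. Black bars are medians, which for donor minus host in cortex are 1.07, 0.72 and 0.23 in grafts 1, 2 and 3.

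In the medulla no gene of the set passed between donor and host cells, where 0.592% of all genes did and 4 of the 39 had an unadjusted p under 0.05. There 34 differences were positive with a median of 0.23. Pcna read 12.2, 12.3 and 12.3 in donor medulla, against 11.7, 11.9 and 8.28 in host medulla, with a difference of 1.68 ± 0.52 (SE, adjusted p = 0.29, limma). The host array of graft 3 was the low one, and without host medulla of graft 2 Pcna passed.

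Within donor cells, Bub1b and Aspm were lower in the medulla than in the cortex, 2 of 39, where 2.54% of all genes passed, with 1.92% of all genes lower. Bub1b read 8.21, 7.41 and 6.92 in donor medulla, against 10.1, 8.75 and 9.16 in donor cortex, and fell by 1.82 ± 0.41 (SE, adjusted p = 0.012, limma) with no overlap. Aspm read 7.35, 7.20 and 7.12 in donor medulla, against 9.22, 8.38 and 7.31 in donor cortex, where graft 3 touches the medullary range, and fell by 1.08 ± 0.29 (SE, adjusted p = 0.044, limma). The donor medulla value of Bub1b in graft 3 was in the dim range. All 3 medullary values of Aspm were in the dim range, and it was tested only through its donor cortex arrays. With no filter Aspm did not pass (adjusted p = 0.0504, limma), and under the stricter filter it was not tested. With mouse as a fixed block neither passed (adjusted p = 0.130 for Bub1b and 0.413 for Aspm). Without donor cortex of graft 1 or donor medulla of graft 3 no gene passed, without donor medulla of graft 1 or 2 only Bub1b did, and without donor cortex of graft 3 there were 6. Itgax was 7.25 to 7.59 in donor medulla, against 9.16 to 10.7 in donor cortex. Epithelial genes averaged 9.80 to 10.9 against 9.31 to 9.97, and proximal tubule genes 7.99 to 8.28 against 9.99 to 11.2. The part of these signals in the Bub1b and Aspm differences was not tested.

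Of the 39 differences 31 were negative, with a median of -0.72 against 0.11 over all genes. All 12 spindle and chromosome genes were among the negative ones (median -1.02). By graft, 32, 34 and 19 of the 39 genes were lower in donor medulla than in donor cortex of the same mouse, and 16 were lower in all 3 grafts, against 15.1% of all genes. As a set the genes were thus lower in grafts 1 and 2, since graft 3 had 20 genes higher and 19 lower, with a median of 0.00. Single genes differed from this. Bub1b differed by -1.89, -1.34 and -2.24 in grafts 1, 2 and 3. In graft 3 Cdk1, Mcm3 and Gins1 were also lower (-1.72, -1.76 and -1.38), while Birc5 and Rrm1 were higher (2.40 and 1.97). The difference between donor and homeostatic BALB/c cells in this regional contrast was tested as an interaction, in which no gene of the set passed (0.453% of all genes did), 33 differences were negative and 8 genes had an unadjusted p under 0.05. Without donor cortex of graft 2 Mcm3 passed there, and without that of graft 3 Aspm did.

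**Figure D5:**
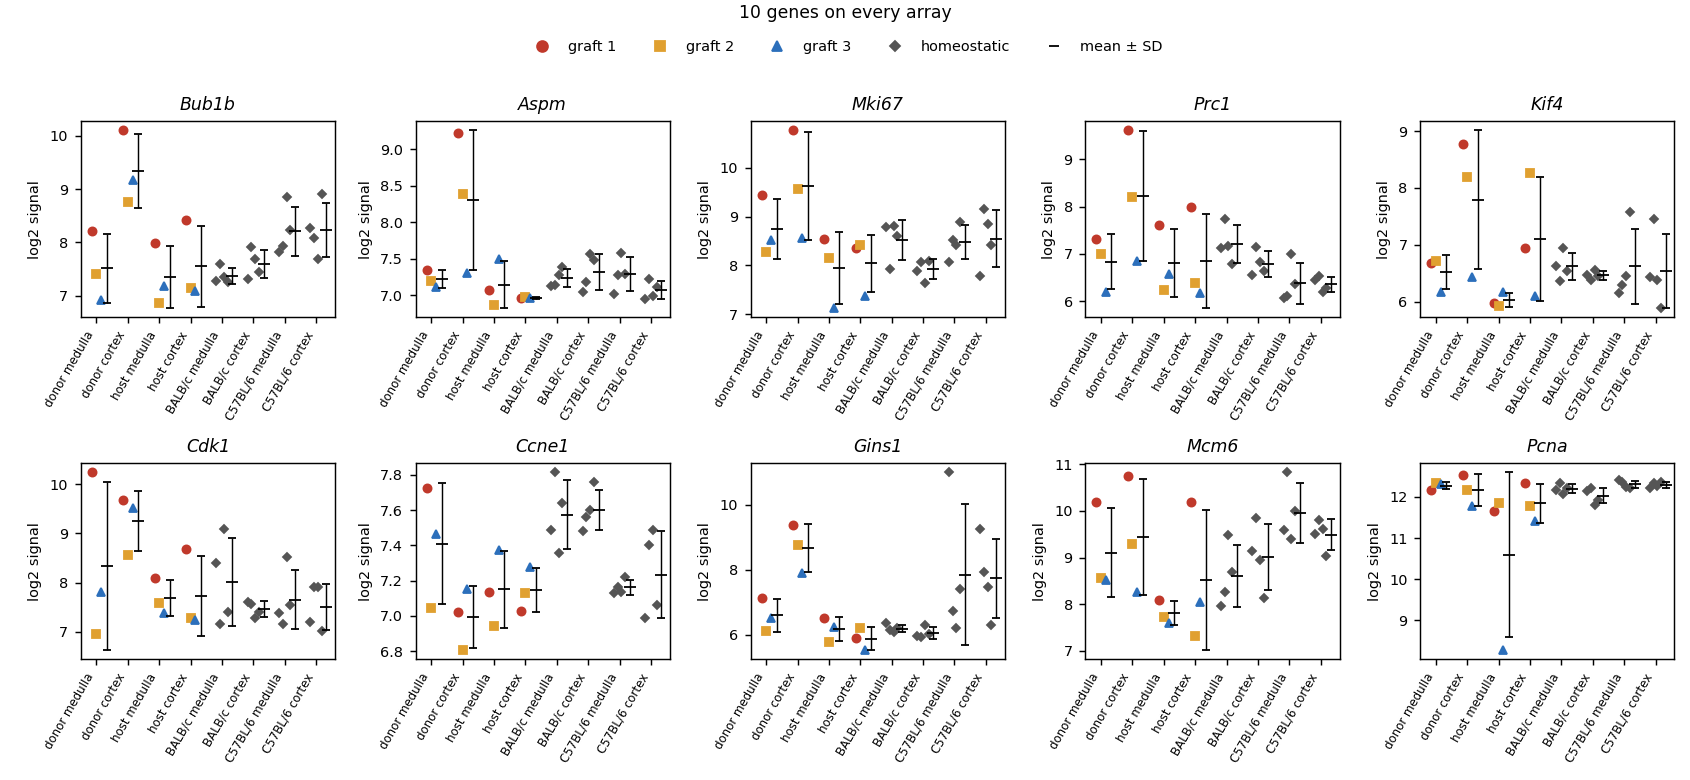
Log2 signal of 10 genes on every array (points) by group, with the mean ± SD of the group (n = 3 for donor and host groups, n = 4 for homeostatic groups). Bub1b, Aspm and Gins1 are high in donor cortex, Ccne1 is low there, Gins1 is spread in both C57BL/6 groups, and Pcna has a single low array in host medulla.

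Graft 1 gave the highest of the 3 values for 25 of 39 genes in donor medulla, 33 in donor cortex, 22 in host medulla and 30 in host cortex. Over all genes tested graft 1 was highest for 25.4% in donor medulla, 23.8% in donor cortex, 22.4% in host medulla and 27.6% in host cortex. The set thus ran high in graft 1 in both regions and in donor and host cells alike. Ccna2, cyclin A2, shows this: it read 10.48, 7.33 and 7.12 in donor medulla of grafts 1 to 3, and 10.9, 8.85 and 7.42 in donor cortex. Ccnb2, cyclin B2, read 11.2, 8.07 and 8.03 in donor cortex and 9.55, 7.54 and 7.47 in host medulla.

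Signal of other cells was read beside these results. In donor cortex the mean of 8 T cell genes was 6.82 to 7.30, that of 6 natural killer cell genes 6.56 to 6.71 and that of 4 B cell genes 6.84 to 6.97, against 7.39 to 8.04, 6.97 to 7.74 and 7.40 to 7.90 in BALB/c cortex, so that no donor array lay above the BALB/c range of any of these lists. The mean of 6 dendritic cell genes was 8.90 to 9.47 in donor cortex, against 10.0 to 10.4 in BALB/c cortex, with 2 of 5 tested called lower. The lymphocyte lists had no gene called higher in donor cortex. The mean of 6 proximal tubule genes was 10.2, 9.99 and 11.2 in donor cortex of grafts 1 to 3, against 7.62 to 8.48 in BALB/c cortex, and 4 of 6 were called higher. Loop and distal tubule genes averaged 10.1 to 12.1 in donor cortex, against 7.10 to 9.99 in BALB/c cortex (2 of 5 called higher), epithelial genes 9.31 to 9.97 against 8.03 to 8.55 (3 of 6), and endothelial genes 7.57 to 8.48 against 7.16 to 7.41 (1 of 5). In none of these lists did the groups overlap, while in collecting duct genes they did (8.20 to 8.93 against 7.79 to 8.27). Other lists were lower in donor than in BALB/c cortex without overlap. These were type 1 dendritic cells (8.37 to 9.13 against 9.95 to 10.3) and macrophages (10.3 to 11.0 against 11.15 to 11.35). Plasmacytoid dendritic cells (7.80 to 8.24 against 8.45 to 8.90) and fibroblasts and pericytes (7.39 to 7.71 against 7.77 to 8.07) were the others. Between donor and host cortex none of the 6 proximal tubule genes passed, and their means were as high in host cortex (9.34, 10.7 and 11.2). The mean of 8 macrophage genes was 10.3 to 11.0 in donor cortex, against 7.89 to 8.60 in host cortex, with 4 of 8 called higher. Natural killer cell genes averaged 6.56 to 6.71 in donor cortex, against 7.51 to 9.18 in host cortex (2 of 4 tested called lower), plasmacytoid dendritic cell genes 7.80 to 8.24 against 8.46 to 11.9 (3 of 4), and T cell genes 6.82 to 7.30 against 7.32 to 8.91 (1 of 8), all without overlap. The part of signal of these other cells in the differences of the set was not tested.

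In donor medulla, no gene of the set passed against homeostatic BALB/c medulla, where 3.18% of all genes did. The median difference was 0.05, and 2 genes had an unadjusted p under 0.05. The array of graft 1 was high for some genes: Cdk1 read 10.2, 6.96 and 7.80 in donor medulla, against 8.40, 7.17, 9.09 and 7.40 in BALB/c medulla, and Mcm4, a helicase subunit, read 9.91, 7.69 and 7.19, against 6.63, 7.64, 6.89 and 6.68. Mcm4 passed in the fit without donor medulla of graft 3.

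Host cells were compared with homeostatic C57BL/6 cells. In the cortex no gene of the set passed, where 4.14% of all genes did, with a median of -0.13 and 1 gene at an unadjusted p under 0.05. In the fit without all 4 arrays of graft 1, 2 passed there, Bub1b and Mcm6. In the medulla Mcm6 and Pcna were lower in host cells, 2 of 39, where 11.5% of all genes passed and 5.21% were lower, so that the share is close to that of all genes.

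Mcm6, a helicase subunit, read 8.10, 7.72 and 7.61 in host medulla, against 9.59, 10.8, 9.41 and 10.0 in C57BL/6 medulla, with no overlap. It fell by 2.15 ± 0.61 (SE, 4.44-fold, adjusted p = 0.021, limma), a call lost without C57BL/6 medulla array 2 or without host medulla of graft 2 or 3. Pcna read 11.7, 11.9 and 8.28 in host medulla, against 12.4, 12.4, 12.2 and 12.2 in C57BL/6 medulla. It fell by 1.71 ± 0.49 (SE, adjusted p = 0.023, limma), and without the host array of graft 3 the difference was -0.55 and did not pass (adjusted p = 0.099). Mean signal of the leukocyte-wide genes was 8.20 to 9.30 on the same host medulla arrays, against 11.9 to 12.1 in C57BL/6 medulla, with 6 of 6 called lower, and that of the epithelial genes was higher with 6 of 6 called. The part of this in the Mcm6 and Pcna values was not tested. No gene passed in the interaction of region between host and C57BL/6 cells, where 0.899% of all genes did and none of the 39 had an unadjusted p under 0.05.

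Outside donor cells, medulla and cortex were compared in 3 kinds of cell. No gene of the set passed in host cells (4.29% of all genes, 3 of 39 at an unadjusted p under 0.05), in C57BL/6 cells (0.153%, 0 of 39) or in BALB/c cells (0.0697%, 0 of 39). In host cells Pcna passed without host medulla of graft 2. Median differences of the set were -0.05 in host, 0.01 in C57BL/6 and 0.15 in BALB/c cells.

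Between the homeostatic strains no gene of the set passed in cortex (9.91% of all genes, 3 of 39 at an unadjusted p under 0.05) or in medulla (9.11%, 6 of 39). Gins1 read 5.93 to 6.32 in BALB/c cortex, against 6.31 to 9.24 in C57BL/6 cortex, and 6.09 to 6.35 in BALB/c medulla, against 6.22 to 11.0 in C57BL/6 medulla. The BALB/c arrays were close together and the C57BL/6 arrays spread, and neither difference passed (-1.68 ± 0.68 in cortex, adjusted p = 0.12, and -1.65 ± 0.68 in medulla, adjusted p = 0.11, SE, limma). Bub1b ran the same way in medulla, with 7.27 to 7.59 in BALB/c and 7.82 to 8.85 in C57BL/6 cells (-0.83 ± 0.35, SE, adjusted p = 0.11, limma). Ccne1 ran the other way, with 7.36 to 7.81 in BALB/c medulla and 7.13 to 7.22 in C57BL/6 medulla, with no overlap, and it passed without BALB/c medulla array 3.

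Since donor and host cells differ in strain, the donor-host difference was also set against the difference of the homeostatic strains. In cortex Bub1b (2.42 ± 0.54, SE, adjusted p = 0.036, limma) and Gins1 (4.47 ± 1.05, SE, adjusted p = 0.045, limma) passed, 2 of 39 and both higher, where 0.774% of all genes passed and 0.342% were higher. For Gins1 neither the donor-host difference nor the strain difference passed alone. Its host and BALB/c cortex values were all in the dim range, and its C57BL/6 cortex values were spread (6.31 to 9.24). The median over the 39 was 0.93, against -0.12 over all genes. The count was 0 without donor cortex of graft 1, host cortex of graft 2 or 3, C57BL/6 cortex array 1 or 2, or BALB/c cortex array 1, 3 or 4. It was 1 without donor cortex of graft 2, host cortex of graft 1 or C57BL/6 cortex array 3 or 4, and 4 without donor cortex of graft 3. In medulla no gene of the set passed, where 1.14% of all genes did and 3 of the 39 had an unadjusted p under 0.05.

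Other genes of the same processes were read from separate lists, beside the 7.91% of all genes called higher and 16.1% called lower in donor against BALB/c cortex. All the shares called below were under the 24% of all genes. In donor against BALB/c cortex, 2 of 32 further mitotic genes rose and 1 fell (median 0.51): Kif15, a spindle motor, by 1.61 ± 0.42 (SE, adjusted p = 0.0089, limma), Ncapg, a condensin subunit, by 2.20 ± 0.78 (SE, adjusted p = 0.044, limma), and Cdc25b, a phosphatase that activates Cdk1, fell by 0.52 ± 0.19 (SE, adjusted p = 0.048, limma). Kif15 read 9.76, 8.52 and 6.91 in donor cortex, against 6.62 to 7.15 in BALB/c cortex, and Ncapg read 10.9, 9.76 and 7.19, against 6.99 to 7.28. Both were high in grafts 1 and 2, as Prc1 and Kif4 were. None of 28 further replication genes passed (median 0.27). Of 16 inhibitor and arrest genes Gadd45a rose by 1.71 ± 0.50 (SE, adjusted p = 0.017, limma) and Btg2 fell by 1.64 ± 0.54 (SE, adjusted p = 0.031, limma), none of 8 G1 cyclin and kinase genes passed, and of 18 transcription factors Mycn fell by 0.59 ± 0.17 (SE, adjusted p = 0.015, limma).

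In the other comparisons Prim1, the primase subunit, was higher in donor than in BALB/c medulla (2.42 ± 0.61, SE, adjusted p = 0.035, limma), where 3.18% of all genes passed. In host against C57BL/6 medulla the G1 genes Cdk6 (-3.01 ± 0.66, SE, adjusted p = 0.0029, limma) and Ccnd2 (-2.17 ± 0.48, SE, adjusted p = 0.0033, limma) were lower, while Gadd45a (1.78) and the inhibitor Cdkn2b (0.56) were higher. There 11.5% of all genes passed. Cdkn1b, the inhibitor p27, was lower in BALB/c than in C57BL/6 cells of cortex (-1.93 ± 0.40, SE, adjusted p = 0.0058, limma) and medulla (-2.34 ± 0.40, SE, adjusted p = 0.0026, limma). Between these strains 9.91% of all genes passed in cortex and 9.11% in medulla. The replication gene Mcm10 was higher in BALB/c cells of cortex (0.55) and medulla (0.61), as was Mycn (0.62 and 0.59). In medulla alone the mitotic gene Pttg1 (-2.52) and Cdk6 (-2.11) were lower, and Cdkn2b (0.50) was higher. Among the regulators of the set, E2f8, a target and feedback repressor of the E2F program, read 8.50 ± 1.30 in donor cortex, against 7.47 ± 0.52 in BALB/c cortex (SD, n = 3 and 4), and did not pass (adjusted p = 0.12, limma). E2f1 read 7.62 ± 0.41 in donor cortex and 7.71 ± 0.22 in BALB/c cortex, Myc 10.4 ± 0.3 and 10.9 ± 0.8, Ccnd1 10.4 ± 0.3 and 9.91 ± 0.18, and Ccnd3 8.33 ± 0.36 and 8.54 ± 0.27 (SD, n = 3 and 4), of which none passed. Ccnd2 read 10.2 ± 0.3 and 10.7 ± 0.7, and Cdkn1b 10.2 ± 0.2 and 9.89 ± 0.73, in the same 2 groups, and did not pass either.

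A further probeset of 2 genes bears on their values. The other Pcna probeset gave nearly the same group means (10.50 and 10.59 in host medulla, 12.17 and 12.16 in donor cortex), so it adds no separate reading, and Pcna has processed copies in the genome that its probes may share. The other Top2a probeset was dimmer, at 7.65 ± 1.13 in donor cortex against 5.50 ± 1.09 in BALB/c cortex (SD, n = 3 and 4), where the brighter one read 10.53 ± 1.73 against 9.27 ± 0.72.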

How the data were processed

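RNA of sorted kidney dendritic cells was hybridised to 28 arrays in 8 groups. The authors deposited log2 signal made by RMA with oligo, per the submitters' processing notes. Tool versions and the array build were not given in the sources used here. Of 22549 probesets, the 20646 with a single gene symbol were kept, which leaves out 551 with several symbols and 1352 without one. Genes brighter than the 40th percentile of the array on 3 arrays or more were tested (14346). The comparisons used limma 3.58.1 (R 4.3.3), fitting a mean for each of the 8 groups (20 residual degrees of freedom, no mouse term), with Benjamini-Hochberg adjustment over the genes tested, 2-sided, at 0.05. The fit was tested on simulated data. The labels' mouse numbers pair regions of an animal, and donor with host cells of a graft. The residual correlation within a mouse averaged 0.155 between donor regions, 0.106 between host regions, 0.220 for donor with host in cortex and 0.171 in medulla, and was near 0 in healthy C57BL/6 (-0.003) and BALB/c mice (-0.006). The labels call the arrays biological replicates. Genes were given array by array by a rule (at most 10, by the number of comparisons passed, then adjusted p, with each role represented), and Top2a, Mcm4, Ccna2, Ccnb2, Ttk and Ccne2 were added after their values were seen. The members, lists and rule were chosen with earlier results of these data known. Alternatives were a mouse block (random, or fixed where groups share mice), 2 other filters, a second quantile normalization, averaged probesets, a fit of the compared groups alone, and the omission of single arrays or of graft 1.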

Additional observations from a re-analysis of the deposited data

Results flagged for a closer look

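The donor-host difference in cortex differed from the strain difference in cortex by an interaction test for Bub1b (2.42) and Gins1 (4.47), as given above with the limits of the Gins1 values.

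Among 64 sets of 4 homeostatic arrays examined, 2 had 1 array far from the others, where chance gives about 1 in 20. The mean of the 41 genes was highest on BALB/c medulla array 1 (7.99, the others 7.74 to 7.76), the array that correlated least with its own group. The mean of the 12 spindle and chromosome genes was highest on BALB/c cortex array 4 (7.65, the others 7.41 to 7.44).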

How the results depend on the processing

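No named difference reversed under any alternative run; 145 of the recomputed values of named genes kept their side of the threshold and 112 lost it. Genes of the set called in donor against BALB/c cortex (10) numbered 3 under the stricter filter, 3 in a fit of only these groups, 3 without graft 1, and 2 to 19 when 1 array was left out. In donor against host cortex (2) they numbered 0 with mouse as a fixed block, 1 with no filter, 0 under the stricter filter, 0 after a second quantile normalization, 0 with only these groups, 1 without graft 1, and 0 to 3 with 1 array left out. In donor medulla against donor cortex (2) they numbered 0 with mouse as a fixed block, 1 with no filter, 1 under the stricter filter, 1 after the second normalization, 0 with only these groups, 1 without graft 1, and 0 to 6 with 1 array left out. In host against C57BL/6 medulla (2) they numbered 1 with only these groups, 3 without graft 1 (Bub1b was added) and 0 to 2 with 1 array left out. For the donor-host difference beyond strain in cortex (2) they numbered 1 under the stricter filter, 0 after the second normalization, 1 with only these groups, 1 without graft 1, and 0 to 4 with 1 array left out. The shares of all genes passing in these runs are not given beside the counts.

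Of the comparisons with a count of 0, host against C57BL/6 cortex gave 2 without graft 1, and BALB/c against C57BL/6 gave 1 in cortex without graft 1, and in medulla 1 with no filter and 1 without graft 1. The regional difference of donor minus BALB/c gave 1 with only these groups. With 1 array left out the range was 0 to 1 for donor against BALB/c medulla, donor against host medulla, medulla against cortex in host cells, BALB/c against C57BL/6 medulla and the regional difference of donor minus BALB/c. Mouse as a random block (consensus correlation 0.134) changed no count by more than 1, giving 3 for the difference beyond strain in cortex, and mouse as a fixed block changed no call in the other 4 comparisons it was run on. The second normalization moved the median of all genes by at most 0.061. It moved the share of higher among all genes called to 43.9%, from 54.4%, in donor against BALB/c medulla, to 52.5% in BALB/c medulla against cortex (3 of 10 genes with the deposited values), and to 60.5%, from 44.1%, for the difference beyond strain in cortex. The cause of these changes was not tested. With 3 grafts, of which 1 runs high, the precision is limited.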
